A study of Mus musculus with 6 samples.

Results

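The Aqp5/Tspan8/Cldn10 cells are 2233 luminal epithelial cells of mouse mammary tumor, selected among 24527 tumor cells and 58561 cells of the whole series by the unique molecular identifiers (UMIs, counted RNA molecules) of a few genes. A gate first kept cells with 200 to 4000 detected genes, at most 25% mitochondrial UMIs, at least 2 UMIs of the epithelial adhesion gene Epcam, no UMI of the leukocyte gene Ptprc or the endothelial gene Pecam1, at most 4 UMIs of the basal keratins Krt5 and Krt14 together, and at most 1 UMI of the proliferation genes Mki67 and Top2a together. Among the 8588 gated cells, a cell was selected when Aqp5, Tspan8 and Cldn10 summed to at least 4 UMIs and to more than each of 3 other sums: Lalba, Fcgbp and Atp6v1b1 (the Lalba sum), Klk6, Klk10 and Dmkn (the kallikrein sum), and Ifit1, Ifit3 and Iigp1 (the interferon sum). The same rule applied to the other sums gave 4170 Lalba cells, 433 kallikrein cells and 108 interferon cells, and 1644 gated cells entered no set. The selected cells are called members in the plots, and the levels of the genes of the rule describe the selection and were not tested.

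The cells came from 3 droplet libraries (10x Genomics v3 chemistry) of tumors from 10-week-old female MMTV-PyMT mice, with 1 library for a 60 min control digestion, 1 for the 15 min interval of a microfluidic tissue platform and 1 for its 60 min interval. In this model the MMTV promoter drives the polyoma middle T antigen in mammary epithelium, and all 3 libraries carry the transgene, so none is a normal gland. All minced tissue met 0.25% type I collagenase, red cells were lysed, and SytoxBlue-negative live cells were sorted before loading. For interval operation, the paper describes eluting the suspension, renewing the collagenase and processing the tissue that is left. The 60 min platform library thus holds cells released after the 15 min elution. Between the 2 platform libraries, order of release and digestion time go together. Between the 15 min library and the control, digestion route and time both differ. Between the 60 min platform library and the control, route and order of release both differ. None of these were tested apart. The paper also states that control and device conditions of a replicate shared a source mouse. The study compared how the digestion route and time change the cells that are recovered and their stress signature.

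Aquaporins are membrane pores for water, and Aqp5 is the form of the apical membrane of fluid-secreting glands. Cldn10 encodes a claudin that forms ion-selective pores in tight junctions, Tspan8 a tetraspanin that organises proteins of the cell membrane, and Folr1 a folate receptor anchored in the membrane by a lipid. Luminal cells of the mammary gland line the ducts and alveoli and include alveolar cells that make milk proteins such as the lactose synthase subunit Lalba.

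The control library held 8177 cells, the 15 min library 8198 and the 60 min library 8152, at 90414805, 101222030 and 97006183 UMIs. The selected cells held 8252851, 11321907 and 6241593 UMIs in the same order, and their median depth lay between 10973 and 11500 UMIs, above the 7568 to 9075 of the remaining gated cells. Their median mitochondrial share was 9.58, 7.90 and 9.85%, and that of the remaining gated cells 9.96, 8.12 and 10.5%. Of the selected cells, 11 carried a barcode that also occurred in another tumor library. With 1 library per condition no test was run, and the 95% intervals given here (exact binomial for shares, exact Poisson for sums, exact conditional for ratios of sums) cover counting error only.

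The cells carried the luminal part of the label. Levels are given as CPM, a gene's UMIs scaled to the summed UMIs of a set of cells, in the order control, 15 min and 60 min. Of the keratin pair of simple epithelia, Krt8 stood at 2928, 1295 and 1692 CPM and Krt18 at 3658, 2182 and 2379 CPM. The 9 genes of the hormone-sensing list summed to 279, 435 and 295 CPM, and they did not act as a group. Gata3, a luminal transcription factor, stood at 195, 307 and 211 CPM and Prlr, the prolactin receptor, at 67.4, 110 and 71.3 CPM, while Esr1, the estrogen receptor, stood at 1.45, 2.30 and 1.12 CPM and Foxa1, its cofactor, at 0.364, 0.972 and 0.961 CPM. The regulator of alveolar luminal cells Elf5 was present at 232, 286 and 269 CPM. This was below the 294, 352 and 313 CPM of the remaining gated cells and the 327, 400 and 363 CPM of the Lalba cells. The fourth marker of the label, Folr1, was not part of the rule and did not set these cells apart, as described below.

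Markers of other cell types were low in the control and 15 min cells. The 7 macrophage genes together summed to 50.7, 41.9 and 62.6 CPM (control, 15 min, 60 min), the 4 granulocyte genes to 78.4, 40.9 and 49.2 CPM, the 4 pericyte genes to 18.9, 23.0 and 36.4 CPM and the 7 basal genes to 17.9, 22.5 and 61.0 CPM. The 6 endothelial genes did not pass 5.93 CPM and the 6 T and NK cell genes did not pass 3.39 CPM in any library. The 4 hemoglobin genes summed to 2.06, 0.618 and 0 CPM. The 6 fibroblast genes stood at 19.4, 17.0 and 372 CPM and are taken up with the 60 min comparison. At 60 min over the control, 4 of 5 basal and 1 of 2 pericyte genes compared were also higher past 2-fold, against 1.44% of all genes. In that library 10 cells held 61.2% of the basal and 56.4% of the pericyte UMIs.

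Stretches of DNA before annotated starts of the selecting genes are shown because these genes select the cells, and their start regions differed in base composition. Positions are those of mm10 (GRCm38.p6), with genes from GENCODE M21 and starts and sequences from RefSeq. Aqp5 (ENSMUSG00000044217) lies on the plus strand of chromosome 15 from 99590782 to 99594829, Tspan8 (ENSMUSG00000034127) on the plus strand of chromosome 10 from 115816832 to 115849893, Cldn10 (ENSMUSG00000022132) on the plus strand of chromosome 14 from 118787908 to 118875489, and Folr1 (ENSMUSG00000001827) on the minus strand of chromosome 7 from 101858331 to 101870788. The windows from 250 bases before to 50 bases after a start had a GC content of 79.7% for Aqp5, 51.7% for Tspan8, and 36.0 and 72.0% for the starts of Cldn10 at 118787871 and 118854950. Stretches free of annotated exons were, 5′ to 3′ on the plus strand, for Tspan8 between exons of the gene and for Cldn10 directly before its first start:
Tspan8, chr10:115817151-115817270: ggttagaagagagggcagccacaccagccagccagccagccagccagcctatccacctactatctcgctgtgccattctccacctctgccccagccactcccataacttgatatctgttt
Cldn10, chr14:118787751-118787870: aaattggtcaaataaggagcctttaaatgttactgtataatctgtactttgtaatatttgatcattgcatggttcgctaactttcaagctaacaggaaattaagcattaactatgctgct
Capitals would mark matches on either strand to the TATA box searched as TATAAA, the GC box as GGGCGG, the ETS type motif as GGAAGT, the grainyhead type motif as AACCGGTT, the E box as CACGTG or the AP-1 type motif as TGACTCA. No motif contains another, and neither stretch held a match. The whole Aqp5 window matched the GC box, the ETS type and the E box, the second Cldn10 window matched the GC box, and the Tspan8 and first Cldn10 windows matched none. Of 32851 such windows genome-wide, 13.6, 35.7, 23.8, 0.146, 7.15 and 5.20% matched the 6 motifs in the order given. A match is a run of letters and says nothing of binding.

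The selected cells made up between 24.3 and 27.4% of the gated luminal cells in the 3 libraries. In the control library 706 of 2906 gated cells were selected, a share of 24.3% with a 95% interval from 22.7 to 25.9%. The 15 min library gave 978 of 3571 cells, or 27.4% (25.9 to 28.9), and the 60 min library 549 of 2111 cells, or 26.0% (24.1 to 27.9). The ratio of shares was 1.13 (1.04 to 1.23) for 15 min over control and 1.07 (0.972 to 1.18) for 60 min over control. The cut on UMIs favors deeper cells, so each gated cell was also thinned to 3000 UMIs, with at least 2 UMIs of the 3 genes required and 302, 172 and 142 shallower cells left out. The shares then were 24.4, 26.4 and 24.2%, and both ratios to the control had intervals that included 1 (1.08, 0.992 to 1.18, and 0.990, 0.893 to 1.10). Of the cells selected after thinning, 83.0, 84.3 and 81.7% were also selected at their own depth.

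**Figure D1:**
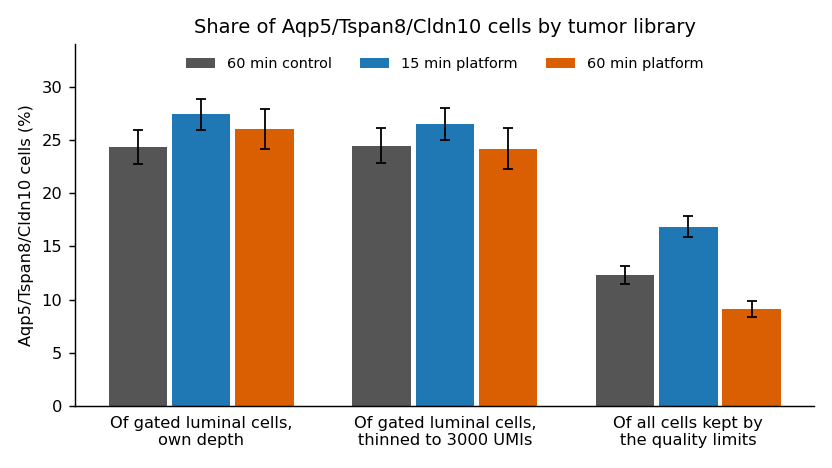
Share of Aqp5/Tspan8/Cldn10 cells in percent (vertical axis) in the 60 min control, 15 min platform and 60 min platform libraries, over 3 denominators. Bars are shares of 1 library each and error bars exact 95% binomial intervals; the 3 libraries lie between 24.2 and 27.4% of gated cells, but between 9.11 and 16.9% of all cells kept by the quality limits.

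Over all cells that passed the limits on genes and mitochondrial UMIs, which include the other cell types of the tumor, the selected cells made up 12.3, 16.9 and 9.11%. The ratio to the control was thus 1.37 (1.252 to 1.498) at 15 min and 0.740 (0.666 to 0.823) at 60 min. The interval of the 60 min ratio lay below 1 over all kept cells and included 1 over gated luminal cells. The kept cells numbered 5736, 5802 and 6024, of which 2906, 3571 and 2111 were gated luminal cells. How many of the other cell types each digestion released cannot be told apart from how many luminal cells it released.

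The rule passed over most cells that expressed the 3 genes. In all, 5117 gated cells held at least 4 UMIs of Aqp5, Tspan8 and Cldn10, and 2884 of them were not selected, 2665 because the Lalba sum was larger and 109 because it was equal. The Lalba sum was also rarely empty in the selected cells, where its median was 5, 7 and 4 UMIs against 18, 23 and 13 UMIs of the selecting sum. At the edge of the rule, the 50, 31 and 48 selected cells with exactly 4 UMIs had 343, 343 and 286 CPM of Aqp5 and the 54, 37 and 59 cells with 3 UMIs that met every other condition had 251, 293 and 282 CPM. Aqp5 is part of the selecting sum, so these values follow from the cut. Folr1, outside the rule, stood at 120, 137 and 173 CPM in the cells with 4 UMIs. In the cells with 3 UMIs it stood at 166, 134 and 209 CPM.

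Aqp5 carried most of the selecting sum, with 83.7, 81.7 and 84.6% of its UMIs, against 12.8, 15.0 and 12.0% from Tspan8 and 3.57, 3.24 and 3.37% from Cldn10. Aqp5 stood at 2309, 2457 and 1802 CPM in the selected cells of the control, 15 min and 60 min libraries and at 641, 788 and 476 CPM in the remaining gated cells. Tspan8 stood at 353, 452 and 256 CPM against 138, 165 and 93.4 CPM. Cldn10 stood at 98.4, 97.5 and 71.8 CPM against 18.2, 19.2 and 14.7 CPM, the widest gap of the 3 genes at 5.39, 5.07 and 4.87 times. For all 3 genes and in both sets of cells, the 60 min library was the lowest.

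Folr1 behaved differently. In the selected cells it stood at 428, 448 and 374 CPM, with 95% intervals of 414 to 443, 436 to 461 and 359 to 390 CPM. In the remaining gated cells it stood at 404, 442 and 364 CPM. The ratios were 1.06, 1.01 and 1.03. The Lalba cells held more of it, 505, 543 and 491 CPM, and the kallikrein cells less, 94.2, 82.9 and 137 CPM. A UMI of Folr1 was found in 85.3, 88.0 and 82.3% of selected cells at their own depth.

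**Figure D2:**
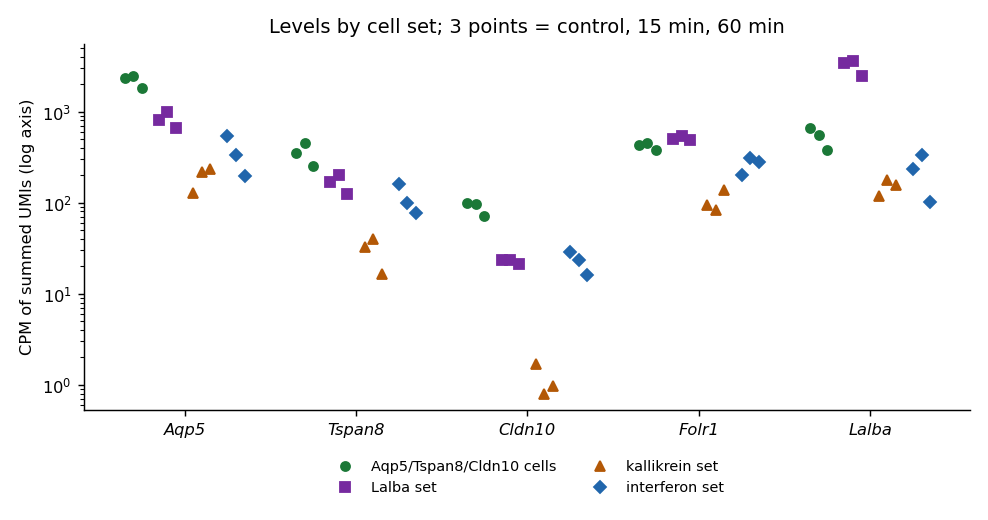
CPM of summed UMIs (vertical axis, log scale) of the 3 selecting genes, Folr1 and Lalba in 4 sets of gated luminal cells, with 1 point each for the control, 15 min and 60 min library from left to right. The selected cells lie above the other sets for Aqp5, Tspan8 and Cldn10, which the rule fixes, but at 374 to 448 CPM of Folr1 they lie below the Lalba cells at 491 to 543 CPM.

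At a fixed depth, most selected cells did not show all 3 genes. After thinning to 3000 UMIs, Aqp5 was found in 91.1, 94.1 and 88.2% of them, Tspan8 in 45.2, 51.2 and 38.7% and Cldn10 in 16.4, 16.1 and 14.0%. All 3 genes were found together in 7.48, 8.79 and 5.71% and exactly 1 of the 3 in 46.2, 41.8 and 53.4%. Cldn10 was found in 16.6, 17.8 and 16.7% of thinned selected cells with Tspan8 and in 16.3, 14.4 and 12.3% of those without it. Among the thinned remaining gated cells, Cldn10 was found in 4.30, 4.15 and 3.51%. There it was found in 5.05, 7.31 and 5.58% of cells with Tspan8 and in 4.04, 2.85 and 3.03% of those without it. Because the cells were selected on the sum of these genes and low counts leave zeros, the shares do not tell whether the selected cells differ.

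Some genes outside the rule followed the selecting sum along its range. The 4 shown here are also among the genes ranked below as most like that sum, so their rise is tied to that ranking. When thinned selected cells were grouped by their UMIs of Aqp5, Tspan8 and Cldn10, Folr1 went from 237, 257 and 230 CPM at 1 to 2 UMIs, over 367, 324 and 351 CPM at 3 to 5 UMIs and 447, 431 and 451 CPM at 6 to 10 UMIs, to 648, 636 and 663 CPM at 11 or more. The 3 libraries gave nearly the same curve. Aldoa, an aldolase of glycolysis, went from 696, 874 and 933 CPM in the lowest of these 4 groups to 3540, 3570 and 2922 CPM in the highest. Kcnn4, a calcium-activated potassium channel, went from 260, 280 and 247 CPM to 1019, 1063 and 823 CPM. Trf, which encodes the iron carrier transferrin, went from 5863, 6257 and 5546 CPM to 11678, 10585 and 12362 CPM. The rise was not particular to the selected cells. Over all thinned gated cells, Folr1 went from 325, 381 and 317 CPM at 1 to 2 UMIs to 694, 703 and 675 CPM at 11 or more. Aldoa went there from 750, 862 and 742 CPM to 3169, 3328 and 2701 CPM.

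Not every luminal gene followed within the selected cells. Csn3, the kappa casein of milk, stayed between 12830 and 15904 CPM over these groups and libraries, and stood at 13722, 11765 and 11097 CPM at 0 UMIs. Over all thinned gated cells it stood at 10394, 10183 and 11046 CPM at 0 UMIs and at 13882, 15425 and 14858 CPM at 1 to 2. At 11 or more it stood there at 14081, 15922 and 16499 CPM. Wfdc18, a small secreted protein of the mammary gland, went down, from 12861, 17851 and 12183 CPM to 4150, 4224 and 5163 CPM. Lalba itself went up, from 87, 112 and 69 CPM to 1523, 1154 and 1032 CPM, although the rule keeps it below the selecting sum and so lets more of it in where that sum is large. Of the thinned selected cells, 176, 301 and 94 fell in the highest group.

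**Figure D3:**
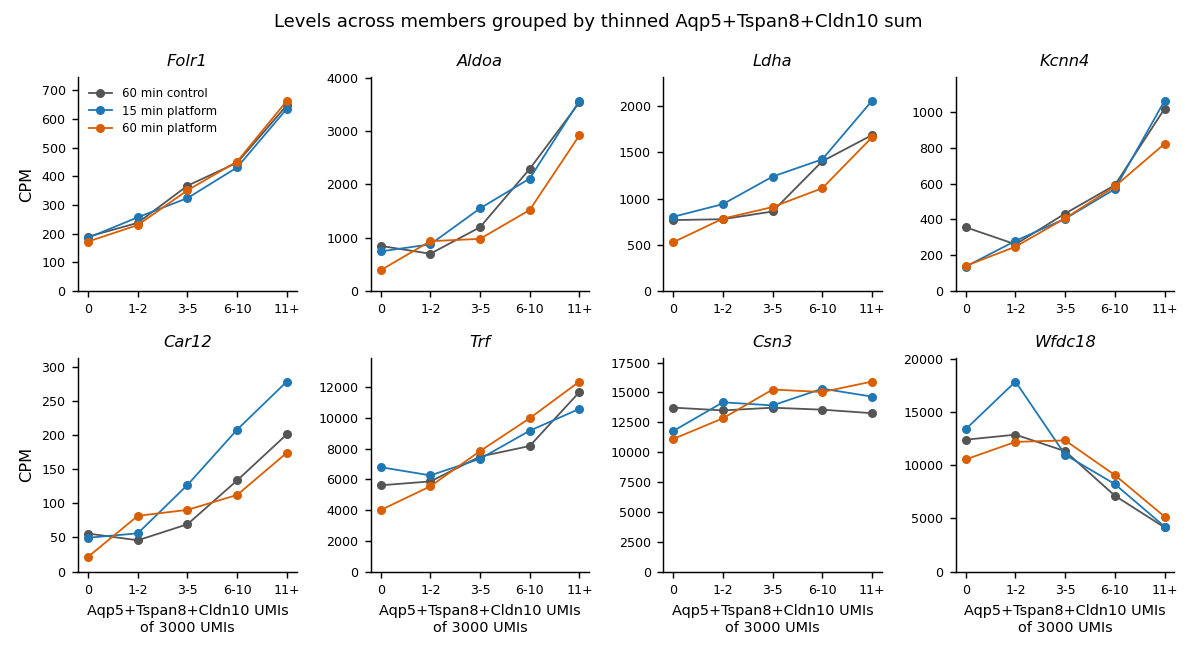
CPM (vertical axes, from 0) of 8 genes in selected cells thinned to 3000 UMIs and grouped by their UMIs of Aqp5, Tspan8 and Cldn10 (horizontal axes), with 1 line per library. Folr1, Aldoa, Ldha, Kcnn4, Car12 and Trf are higher where the selecting sum is 11 or more than where it is 1 to 2, Csn3 is about level and Wfdc18 is lower, in each of the 3 libraries.

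Over the 7972 gated cells with enough UMIs to be thinned, the genes outside the rule most like the selecting sum, of 5746 found in at least 5% of cells, were Aldoa (Spearman's rho 0.414), Kcnn4 (0.395), Pgp (0.375), Ldha (0.355), Trf (0.346), Emid1 (0.336), Scgb2b27 (0.327), Folr1 (0.303), Car12 (0.299) and Col9a1 (0.289). These cells share 3 libraries and 1 fixed depth, and the values describe them without a test. Genes with a negative rho included Basp1 (-0.393), S100a6 (-0.339), Mfge8 (-0.320), Tagln2 (-0.316) and Ltf (-0.313). Pgp encodes phosphoglycolate phosphatase, Ldha lactate dehydrogenase A, Scgb2b27 a secreted secretoglobin, Car12 a membrane-bound carbonic anhydrase and Col9a1 a chain of collagen IX. Within single libraries, rho was 0.434, 0.414 and 0.353 for Aldoa and 0.281, 0.312 and 0.287 for Folr1.

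Between the selected and the remaining gated cells, genes outside the rule were compared within each library, as a description, since the cells had been chosen on their own counts. Of 12767 genes with at least 50 UMIs, 49 were higher past 2-fold in all 3 libraries (0.384%) and 100 lower (0.783%). The median gene had a log2 fold of -0.09, -0.07 and -0.05, and 36.6% of all genes compared were below 1 in each of the 3 libraries and 21.1% above it. A ratio on one side of 1 is therefore given as a value and is no call. Of the 49 genes, 19 did not owe more than 50% of their UMIs to 10 selected cells in any library, and of the 100 genes 40 met the same limit in the remaining cells.

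Enho, the precursor of the peptide adropin, stood at 71.7, 97.4 and 38.3 CPM in the selected cells and at 19.2, 20.4 and 7.97 CPM in the remaining ones, with a lowest ratio of 3.74. Car6, a secreted carbonic anhydrase, stood at 90.0, 82.2 and 45.8 CPM against 33.1, 25.1 and 19.9 CPM, with 47.8, 49.9 and 57.7% of its UMIs in 10 selected cells. In the control the kallikrein and interferon cells held 89.2 and 82.1 CPM of Car6, about as much as the selected cells. Eln, the elastin of elastic fibers, stood at 39.3, 31.2 and 24.7 CPM against 9.57, 10.4 and 9.38 CPM. For each of these 3 genes, the 3 values of the selected cells lay above the 3 values of the remaining cells.

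Comp, a glycoprotein of cartilage matrix, stood at 13.8, 15.8 and 3.68 CPM against 1.68, 1.23 and 0.423 CPM. It came from few cells, with a UMI in 36, 58 and 10 selected cells. Prol1, a gene of lacrimal and salivary secretion, stood at 9.81, 14.1 and 25.6 CPM against 1.79, 4.63 and 0.564 CPM, and its 8 positive cells at 60 min held all UMIs of that library. Ly6d, a lipid-anchored surface protein found in 26.6, 29.9 and 21.9% of selected cells, stood at 434, 520 and 313 CPM against 154, 199 and 136 CPM. S100b, a calcium-binding protein, stood at 30.8, 38.2 and 24.8 CPM against no more than 12.4 CPM. The other named higher genes, Colca2, Aldh3b2, Susd5, Gm32618, Capn9, 4930469K13Rik, Cox8b and Gabra4, lay between 2.30 and 6.30 times.

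Among the leading lower genes, Csn2, the beta casein, stood at 2.42, 6.18 and 8.01 CPM in the selected cells and at 42.5, 81.4 and 54.4 CPM in the remaining ones. The rule removes cells rich in the milk gene Lalba, and the Lalba cells held 51.55, 109 and 66.4 CPM of Csn2. Krt17, a keratin of basal and stressed epithelium, stood at 3.03, 0.972 and 2.40 CPM against 20.5, 22.1 and 17.3 CPM. It was also low in the Lalba cells, at 7.30, 1.66 and 1.12 CPM. The kallikrein proteases Klk7 and Klk11 stood at or below 0.265 CPM against 2.05 to 5.61 CPM, where the rule removes cells rich in other kallikreins.

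Ankrd1, an ankyrin repeat protein of the nucleus, was found in 1, 2 and 1 selected cells and stood at 2.84, 5.73 and 9.73 CPM in the remaining ones. Tph1, the enzyme that starts serotonin synthesis, had 0, 1 and 0 UMIs in the selected cells and 2.58, 3.32 and 5.64 CPM in the remaining ones. Fxyd2, a regulator of ion transport, stood at 0.727, 0.707 and 0.481 CPM against 4.63, 8.60 and 8.89 CPM, and Ptn, a heparin-binding growth factor, at 0.727, 0.618 and 0.481 CPM against 4.26, 3.85 and 48.9 CPM. The Lalba cells also held little of these 4 genes, with no more than 1.00 CPM in any library. Higher levels were found in smaller sets, where Ankrd1 stood at 5.89, 47.4 and 40.5 CPM in the kallikrein cells, and Ptn, Tph1 and Fxyd2 stood at 1542, 190 and 178 CPM in the 25 interferon cells at 60 min. Slc25a48 and Pamr1 completed the named lower genes, at no more than 0.795 CPM in the selected cells of any library.

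**Figure D4:**
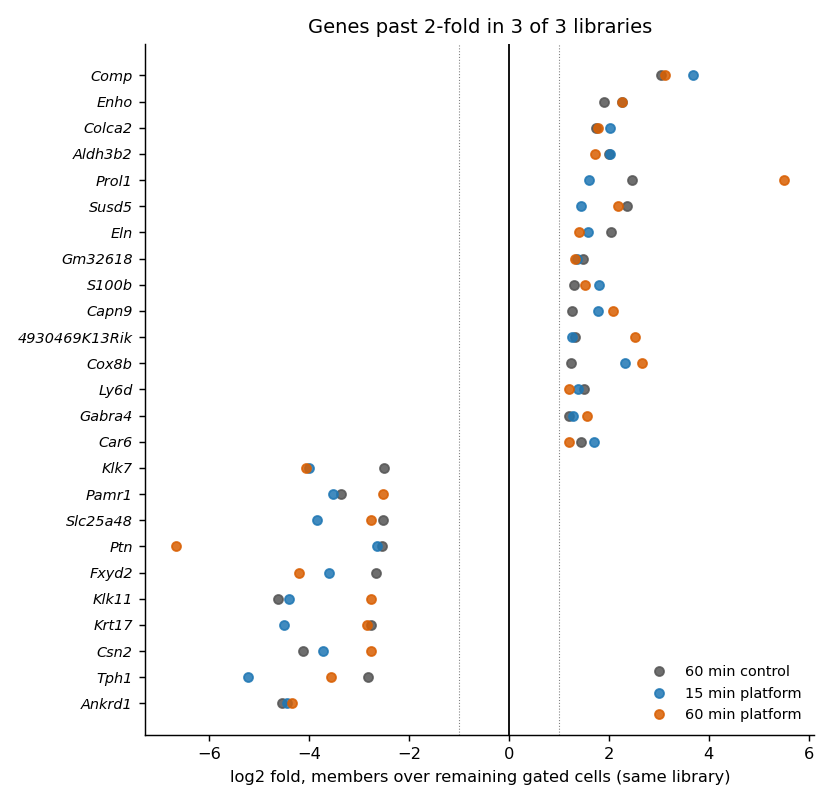
Log2 fold of CPM between selected and remaining gated cells of the same library (horizontal axis) for the named genes past 2-fold in 3 of 3 libraries, with 1 point per library and dotted lines at 2-fold. The 15 higher genes lie between 1.20 and 5.51 and the 10 lower genes between -6.67 and -2.50, where a count of 0 was set to 3 UMIs.

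Fluid and ion transport genes were looked at as a list because of the role of Aqp5. Of the 8 aquaporins measured, Aqp5 alone was abundant, and the next, Aqp11, stood at 2.67, 3.09 and 3.52 CPM. Of 13 ion transport genes compared, 1 was higher past 2-fold in each library, Car12, at 114, 180 and 91.8 CPM against 52.2, 65.0 and 42.0 CPM. Slc4a4, a sodium bicarbonate cotransporter, stood at 8.48, 17.8 and 10.3 CPM against 4.47, 7.41 and 3.46 CPM. Kcnn4 was 1.59, 1.54 and 1.66 times as high, Ano1, a calcium-activated chloride channel, 1.39, 1.29 and 1.33 times, and Slc12a2, the sodium potassium chloride cotransporter of secretion, 1.60, 1.55 and 1.15 times. The median log2 fold of the list was 0.10, 0.15 and 0.13.

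Of 8 other claudins compared, none passed 2-fold in all libraries, and 5 were below 1 in all 3, with a median log2 fold of -0.19, -0.40 and -0.22. Cldn3, the most counted claudin, was at 0.864, 0.801 and 0.817 times and Cldn4 at 0.620, 0.359 and 0.589 times. Cldn4 stood at 897, 301 and 742 CPM in the kallikrein cells, and in the Lalba cells at 223, 31.7 and 101 CPM, against 176, 30.6 and 102 CPM in the selected cells. Cldn2, another pore-forming claudin, was above 1 in all 3, at 1.48, 1.60 and 1.26 times. All 9 other tight junction genes were below 1 in all 3 libraries, 1 of them past 2-fold, the polarity gene Pard6b at 4.24, 2.03 and 2.08 CPM against 10.5, 6.47 and 7.69 CPM. Of 16 tetraspanins other than Tspan8, none passed 2-fold and 8 were above 1 in all libraries, among them Tspan7 (1.87, 1.78 and 1.61 times), Tspan15 (1.62, 1.49 and 1.28) and Tspan3 (1.52, 1.48 and 1.45).

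The folate genes differed little. None of 12 passed 2-fold, and the median log2 fold was 0.15, 0.11 and 0.11. The reduced folate carrier Slc19a1 was at 1.28, 1.54 and 1.48 times and the folate enzyme Shmt1 at 1.35, 1.29 and 1.22 times. Of 14 genes of glycolysis and hypoxia, 8 were above 1 in all libraries, and Aldoa stood apart at 2.20, 2.01 and 1.73 times, while Ldha was at 1.27, 1.18 and 1.24 times and Pgk1, phosphoglycerate kinase, at 1.33, 1.29 and 1.20 times. The hypoxia gene Ndrg1 was the 1 gene lower past 2-fold, at 60.6, 33.0 and 46.0 CPM against 123, 94.7 and 93.5 CPM.

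Of luminal identity genes, few passed 2-fold. None of the 8 luminal epithelial genes did so in all 3 libraries, with ratios of 0.969, 0.991 and 0.986 for Krt18 and of 0.461, 0.407 and 0.774 for Krt19, and all 8 were below 1 in each library. Of 8 luminal progenitor genes, 6 were below 1 in all libraries, and 1 passed 2-fold, the aldehyde dehydrogenase Aldh1a3 at 13.0, 11.5 and 16.2 CPM against 62.6, 76.6 and 43.5 CPM. The kallikrein cells held 384, 460 and 371 CPM of Aldh1a3. The Lalba cells held 39.3, 21.0 and 10.6 CPM, at 60 min less than the selected cells. The progenitor receptor Kit was at 0.579, 0.578 and 0.602 times. Of 9 milk genes compared, 8 were below 1 in all libraries and 2 were past 2-fold, Csn2 and the related Csn1s2a at 8.48, 10.2 and 10.9 CPM against 18.9, 43.8 and 29.1 CPM. The exception was Trf at 1.30, 1.01 and 1.22 times. The rule removes cells rich in the milk gene Lalba, so the levels of this list are not independent of the selection. None of the 14 lineage transcription factors passed 2-fold, with Sox10 at 1.03, 1.01 and 1.03 times and Gata3 at 1.02, 1.11 and 0.882 times.

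Among 11 keratins compared, 3 were lower past 2-fold, Krt17, Krt16 and Krt80. Krt80 stood at 1.58, 0.177 and 0.641 CPM against 8.15, 6.80 and 4.58 CPM. Of 13 secreted defence genes, 9 were below 1 in all libraries. Ltf, the iron-binding lactoferrin, was the 1 past 2-fold, at 673, 777 and 1746 CPM against 2374, 3741 and 4220 CPM, and Lcn2, lipocalin 2, was not among the 9, at 1.19, 0.987 and 1.05 times. All 8 interferon-induced genes outside the rule were below 1 in all libraries and 1 passed 2-fold, Rsad2 at 5.45, 3.62 and 2.72 CPM against 18.5, 27.4 and 11.1 CPM, where the rule removes cells rich in Ifit1, Ifit3 and Iigp1. The 8 genes of antigen presentation by MHC class I had none past 2-fold and a median log2 fold of 0.08, -0.09 and -0.10.

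Of 9 genes of the EGF receptor family and its ligands, 1 was lower past 2-fold, the ligand Areg at 3.39, 0.265 and 0.481 CPM against 12.3, 4.05 and 8.39 CPM. Nrg1, a ligand of the receptors Erbb3 and Erbb4, was above 1 throughout, at 12.7, 12.9 and 12.8 CPM against 6.78, 6.55 and 3.88 CPM. Of 7 chemokines compared, 1 was lower past 2-fold, Ccl20 at 0.485, 0 and 0 CPM against 2.16, 0.614 and 11.8 CPM. Of the hormone-sensing, basal and other cell type lists, the genes past 2-fold in all libraries were Areg and Krt17, both lower. The 12 stress genes and 9 heat shock genes held none past 2-fold in all 3 libraries.

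Conditions were compared within the selected cells on summed UMIs. A gene was counted when its CPM differed past 2-fold and the counting interval of the ratio excluded 1. For the 15 min interval over the control, 277 of 10514 genes were higher (2.63%) and 176 lower (1.67%). The median gene had a log2 ratio of 0.21, so values are best read against it. Centred on that median, the counts were 107 higher and 274 lower, so the balance of higher and lower genes turned. No replicate library checks any of these differences.

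The 10 leading lower genes at 15 min included growth factors and transcription factors. Hbegf, a ligand of the EGF receptor, stood at 272, 18.5 and 115 CPM, a log2 ratio of -3.88 (-4.09 to -3.67) at 15 min. Csf3, the granulocyte growth factor G-CSF, stood at 77.9, 0.0883 and 26.6 CPM, with 1 UMI at 15 min and a log2 ratio of -9.78 (-15.09 to -7.30). Its UMIs lay mostly in 24 control cells (93.3%) and 7 cells at 60 min (95.8%), and without cells of 5 or more Csf3 UMIs it stood at 5.48, 0.0883 and 1.14 CPM. Fosl1, a subunit of the AP-1 transcription factor, stood at 41.0, 1.06 and 16.3 CPM. For these 3 genes the 60 min interval lay between the other 2 libraries.

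Plaur, the urokinase receptor, stood at 23.9, 1.15 and 11.1 CPM, Maff, a small Maf transcription factor, at 145, 14.0 and 103 CPM, and Hmox1, the heme-degrading stress enzyme, at 69.2, 7.95 and 52.2 CPM. The transcription regulator Ovol1 stood at 45.0, 4.68 and 23.1 CPM and the tubulin Tubb6 at 41.3, 5.65 and 19.9 CPM. Noct, a circadian phosphatase, and Frat2, a Wnt pathway protein, had log2 ratios of -4.07 (-4.65 to -3.53) and -3.46 (-3.93 to -3.02). In the remaining gated cells, the same 10 genes had log2 ratios between -7.22 and -2.46 at 15 min.

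The leading higher genes at 15 min came partly from few cells. Hp, haptoglobin, stood at 4.73, 75.3 and 18.6 CPM, but at 15 min 97.2% of its UMIs lay in 10 of 978 cells. Dcpp1, a salivary-type secreted protein, stood at 5.09, 38.6 and 9.77 CPM, with 98.6% in 10 cells, and Scgb1b27, a secretoglobin, at 14.4, 75.7 and 4.17 CPM, found in 11, 6 and 1 cells. Others were found widely. Lrrc32, a docking receptor for latent TGF-beta, stood at 10.1, 33.0 and 16.3 CPM and was found in 75, 249 and 82 cells. Cd27, a TNF receptor family member, stood at 4.60, 17.4 and 8.01 CPM in 32, 154 and 35 cells. Zfp113 and Trmt12 had log2 ratios of 1.56 (1.09 to 2.06) and 1.64 (0.95 to 2.40), and the remaining named genes were Gm3336, Ccl3 and Ppp1r3c.

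For the 60 min interval over the control, 142 of 9842 genes were higher (1.44%) and 59 lower (0.599%), around a median log2 ratio of 0.01. All 5 fibroblast genes compared were higher, and matrix genes led the list. Col1a1 and Col1a2, the chains of collagen I, stood at 5.33, 3.89 and 139 CPM and at 2.67, 2.12 and 102 CPM, the matrix protein Bgn at 1.33, 0.530 and 62.3 CPM, and Postn, periostin, at 2.91, 1.94 and 69.9 CPM. These UMIs were held by a few cells: 5 of 549 selected cells at 60 min carried at least 5 UMIs of the 6 fibroblast genes and held 88.3% of them, with up to 901 in 1 cell. Without cells of that kind, the list stood at 43.9 CPM at 60 min, compared with 12.8 CPM in the control, and 86 genes were higher in place of 142.

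The same list stood at 13.1, 62.9 and 219 CPM in the remaining gated cells. The 5 cells had a median of 16933 UMIs, against 10973 for all selected cells of that library. The genes Acta2, Col5a2, Lum, Col3a1, Serpinf1 and Ctgf, also among the 10 leading genes, had between 73.2 and 100% of their 60 min UMIs in 10 cells. Without cells marked by the doublet caller Scrublet, 141 genes were higher at 60 min than in the control, in place of 142. The part of mixed droplets or of free RNA in these values was not tested.

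Of the 10 leading genes lower at 60 min than in the control, 6 were lower past 2-fold at 15 min too, namely Noct, Csf3, Cry1, a circadian repressor, Klhl21, S100a9 and Fam107b. Cry1 stood at 21.6, 9.27 and 7.85 CPM and Klhl21 at 36.0, 10.4 and 13.1 CPM. S100a9, a granulocyte calcium-binding protein, stood at 17.3, 5.21 and 1.28 CPM. Tesc, a calcium-binding regulator of sodium proton exchange, stood at 43.6, 47.9 and 16.2 CPM, and Comp at 13.8, 15.8 and 3.68 CPM. Cacng5, a calcium channel subunit, stood at 14.8, 15.2 and 0.801 CPM, with 83.6% of its control UMIs in 10 cells. Fam107b and Scgb1b27 completed the 10.

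Between the platform intervals, 179 of 10427 genes were higher at 60 min than at 15 min (1.72%) and 230 lower (2.21%), around a median log2 ratio of -0.19. Centred on that median, the counts were 236 higher and 118 lower, so the balance turned. Of the 10 leading higher genes, 9 were the connective tissue genes Bgn, Acta2, Lum, Col1a2, Col5a2, Mfap4, Postn, Col1a1 and Col3a1, with 87.8 to 100% of their 60 min UMIs in 10 cells, and the other was Csf3, with 97.6%. Scgb2b27, which followed the selecting sum across cells, was lower at 60 min, at 928, 1309 and 392 CPM, and a UMI of it was found in 49.1, 56.4 and 37.2% of selected cells. Of its UMIs, 50.1, 32.8 and 42.4% lay in 10 selected cells. Without cells of 5 or more Scgb2b27 UMIs it stood at 54.1, 66.6 and 39.3 CPM. In the remaining gated cells it stood at 496, 294 and 131 CPM.

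The 3 selecting genes themselves did not pass 2-fold between libraries. Their log2 ratios at 60 min over 15 min were -0.45 for Aqp5, -0.82 for Tspan8 and -0.44 for Cldn10, and those at 15 min over the control 0.09, 0.36 and -0.01. Car12 had 0.66 at 15 min and -0.31 at 60 min over the control. Cells with 40 or more UMIs of the 3 genes made up 25.1, 31.9 and 17.5% of the selected cells. Since the cells were selected on these UMIs, the values describe the selection in each library.

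The 12 stress genes listed here are single genes and not a full stress score, and they did not share a direction at 15 min. Their median log2 ratio was -0.24 for 15 min over the control and 0.22 for 60 min over the control, and 0.26 for 60 min over 15 min. Centred on the median gene, the 15 min value was -0.45 and the 60 min over 15 min value 0.45. The remaining gated cells had uncentred medians of -0.15, 0.24 and 0.39 in the same 3 contrasts. Hsp90aa1, a heat shock chaperone, was the 1 gene past 2-fold against the control, at 1037, 491 and 1433 CPM. Atf3, a stress-induced transcription factor, stood at 871, 533 and 984 CPM and Gadd45b, a growth arrest gene, at 125, 72.8 and 185 CPM, both lowest at 15 min. Jun and Egr1, immediate-early transcription factors, went the other way, at 1943, 2965 and 2850 CPM and at 562, 790 and 704 CPM, both lowest in the control. Fos stood at 2821, 3150 and 3412 CPM and Fosb at 889, 726 and 817 CPM.

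The 9 further heat shock genes showed a wider range. At 15 min 4 were lower than in the control past 2-fold and none higher, and at 60 min 1 was higher than in the control. Over the control, the median log2 ratio was -0.78 at 15 min and 0.35 at 60 min. It was 1.13 for 60 over 15 min. In the remaining gated cells these medians were -0.58, 0.49 and 1.02. Hspa1a, the inducible HSP70, stood at 891, 201 and 1817 CPM, with 95% intervals of 871 to 912, 193 to 210 and 1784 to 1851 CPM. Its twin Hspa1b stood at 466, 123 and 825 CPM, and since the copies are nearly identical, reads shared between them may be split. Hspb1, a small heat shock protein, stood at 1378, 536 and 2000 CPM and Dnajb1, a cochaperone, at 166, 79.0 and 183 CPM. Hspa5, the chaperone of the endoplasmic reticulum, stood at 730, 653 and 753 CPM.

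**Figure D5:**
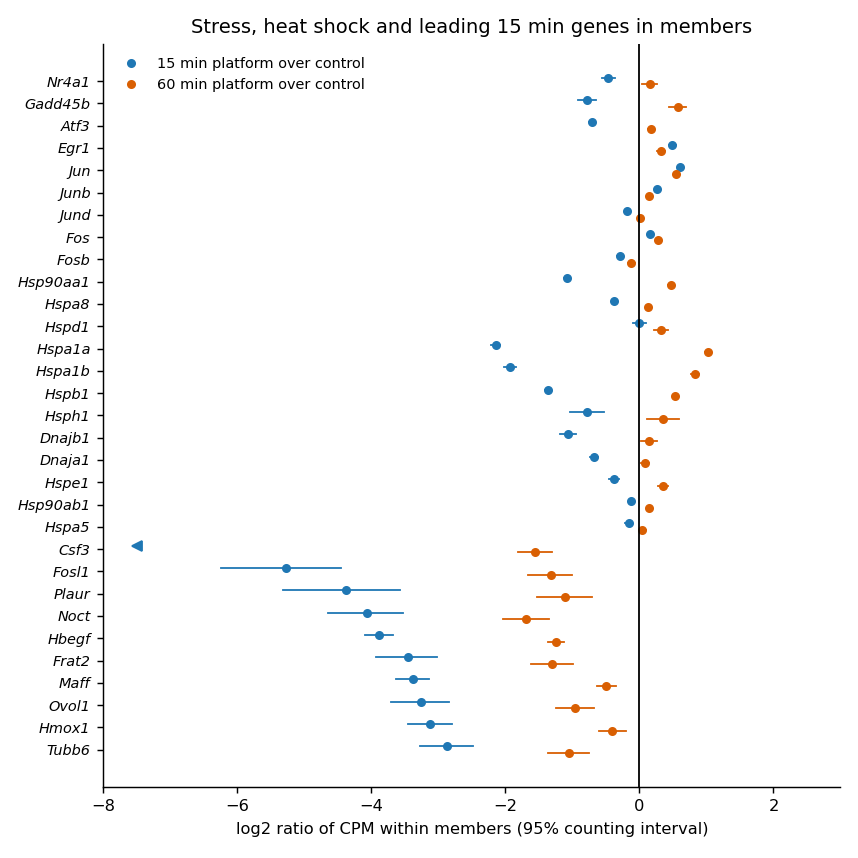
Log2 ratio of CPM within the selected cells (horizontal axis) for the 12 stress genes, the 9 heat shock genes and the 10 leading lower genes at 15 min, with blue points for 15 min over control and orange points for 60 min over control and lines for 95% counting intervals. The arrow for Csf3 stands for a value off the axis, -9.78; all 9 heat shock genes lie left of 0 at 15 min and right of it at 60 min.

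Epithelial and immune signal genes also differed by library. Krt8 was lower at 15 min than in the control past 2-fold (log2 ratio -1.18) and Krt18 short of it (-0.75). In the remaining gated cells these ratios were -1.12 and -0.78. Cldn4, a claudin of luminal cells, stood at 176, 30.6 and 102 CPM, and at 283, 85.4 and 173 CPM in the remaining gated cells. Of the chemokines, Cxcl2, which attracts neutrophils, stood at 101, 13.9 and 194 CPM and Cxcl1 at 114, 73.8 and 263 CPM. The 5 chemokines compared had median log2 ratios of -0.63, 0.72 and 1.83 (15 min over control, 60 min over control, 60 over 15 min). In the remaining gated cells they had -0.88, 0.23 and 1.29. Of the secreted defence genes, Ltf and the acute-phase gene Saa1 were higher at 60 min than in the control past 2-fold, Saa1 at 218, 178 and 545 CPM, and Saa2 and Spp1, osteopontin, were so against 15 min, Spp1 at 12970, 9518 and 19293 CPM.

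Other lists moved little between libraries. No gene of glycolysis and hypoxia, of folate metabolism, of MHC class I or of the lineage factors passed 2-fold in any of the 3 contrasts. The lineage factors had a median log2 ratio of 0.48 at 15 min over the control, against 0.21 for all genes, with Sox10 at 75.5, 128 and 84.4 CPM. Glycolysis and hypoxia genes had a median of -0.31 at 60 min over the control, with Aldoa at 2086, 2328 and 1414 CPM. Of the milk genes, Csn2 was higher past 2-fold at 15 min and, with Csn1s1, at 60 min over the control, Csn1s1 at 20.5, 30.8 and 59.0 CPM. Few cells carried both: Csn2 was found in 6, 11 and 5 selected cells, with 46 of its UMIs at 15 min and 45 at 60 min in 1 cell, and Csn1s1 had 89.1% of its 60 min UMIs in 10 cells.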

How the data were processed

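The authors deposited a tumor matrix of UMI counts per gene and cell for 3 libraries joined by the Cell Ranger aggregation step, which evens read depth between libraries. The submitters' processing notes name Cell Ranger 3.1.0 and mm10. Counts were used as deposited, with cells assigned to libraries by the barcode suffix. Cells, genes and gene lists were chosen with earlier results of these data known. UMIs were summed over the cells of a set and library, scaled to CPM, and compared where at least 50 UMIs were present. Named genes were those with at least 100 UMIs and the largest fold in the least changed library (15 higher, 10 lower) or the largest ratio between libraries (10 in each direction), plus genes of 29 fixed lists. A count of 0 was set to 3 UMIs for folds. Exact 95% intervals cover counting error only, and the labels name no separate animals. Doublets were limited by the 4000 gene limit and by the gate on Ptprc, Pecam1, Krt5 and Krt14. Scrublet, run in scanpy 1.11.5, marked 1.12, 2.17 and 2.02% of tumor cells with at least 200 genes. Without the marked cells, 705, 976 and 548 selected cells were left. Python 3.11.15, numpy 2.4.6, scipy 1.17.1, pandas 2.3.3 and matplotlib 3.10.9 were used, and the scripts were tested on simulated data. Alternatives covered the rule, the gate, depth, fold, filter and scaling.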

Additional observations from a re-analysis of the deposited data

Results flagged for a closer look

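In 5 instances the selected and the remaining gated cells differed in opposite directions between the same libraries, past 2-fold in each set. These differences between the sets were not tested, and each library is 1 sample. Scgb1b27 had a log2 ratio of 2.39 for 15 min over control in the selected cells and -3.81 in the remaining ones. Prol1 had 1.39 for 60 min over control in the selected cells and -1.66 in the remaining ones. Between 60 and 15 min, Hp had -2.02 against 1.33, Cartpt -6.13 against 1.43, and Rgs5, a pericyte gene, 5.72 against -3.46. Few cells carried these genes: 1 selected cell held 95.4% of the Rgs5 UMIs at 60 min, and 10 selected cells held 97.2% of the Hp UMIs at 15 min.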

How the results depend on the processing

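The 60 min over control ratio of shares, 1.07 (0.972 to 1.18) in gated cells, depended on the setting: its interval lay above 1 with a cut of 3 UMIs (1.10, 1.006 to 1.206) and without the upper gene limit (1.09, 1.004 to 1.188), included 1 after thinning (0.990), and lay below 1 over all kept cells. Of the values under alternatives, 101 stayed within the limits set for a move and 50 moved. For gene counts these limits rest on the size of the count and not on which genes were called. For shares (24.3, 27.4 and 26.0%), a cut of 3 UMIs gave 26.2% in the control and 28.8% at 60 min, and a cut of 6 UMIs gave 21.2, 25.1 and 21.7% with a 60 over 15 min ratio of 0.865. The 60 min share was 28.0% without the upper gene limit and 28.4% at 10% mitochondrial UMIs, and the control share 22.7% with 1 UMI of Epcam. Over all kept cells the shares were 12.3, 16.9 and 9.11% and the ratios 1.37, 0.740 and 0.541. Against the remaining cells, 163 genes were higher and 365 lower at 1.5-fold, 29 and 56 with at least 200 UMIs, 28 and 63 after thinning, and 19 and 40 where 10 cells held at most 50% of UMIs. Against the named sets 66 were lower. Leaving out 1 library gave 53 to 74 higher and 126 to 189 lower, both the most without the 60 min library. A gene then has to pass in fewer libraries, which loosens the call, so a larger count is no sign of a stronger result. Without the control, 15 min and 60 min library, 43, 39 and 47 of the 49 higher genes were called again. For the 100 lower genes these were 89, 83 and 92. At 1.5-fold the higher and lower counts were 1382 and 398 for 15 min over control, 431 and 327 for 60 min over control, and 357 and 1134 for 60 over 15 min. With at least 200 UMIs they were 68 and 105, 34 and 23, and 79 and 58. Centring gave 107 and 274 for 15 min over control with a stress median of -0.45, and 236 and 118 for 60 over 15 min with 0.45, so that the balance of higher and lower genes turned in both. Thinning gave 91 lower at 15 min over control, 54 higher at 60 min over control and 79 higher at 60 over 15 min. Of the genes called after thinning, 47 of 190 higher and 74 of 91 lower at 15 min over control were also called without it. For 60 min over control these were 32 of 54 and 16 of 45, and for 60 over 15 min 62 of 79 and 43 of 186. A cut of 6 UMIs gave a stress median of 0.29 at 60 min over control. Alternatives chosen after seeing the data gave 86 higher at 60 min over control without cells of 5 or more fibroblast UMIs, and 56 higher (83 for 60 over 15 min) where 10 cells held at most 50% of UMIs. The cause of these moves was not tested, apart from the smaller number of genes tested under the stricter filter and the looser call with 1 library left out. With 1 library per condition, leaving out a library removes a condition, so no contrast between conditions was repeated that way.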
